A study of Mus musculus with 9 samples.

Results

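The wall of the brain's blood vessels and the membranes around the brain were followed here through 35 genes that mark endothelial cells (14 genes), pericytes (7), vascular smooth muscle (3) and meningeal fibroblasts (10), with Ranbp3l described beside them. The genes were listed by name with earlier results of these data known, among them the low Ranbp3l in Dot1l(fl/+), so its difference is a description here. Ranbp3l was kept apart from the 4 classes, and which cells express it was not tested. All 35 were found among the 47729 gene identifiers counted in each library and among the 17671 genes tested. The libraries were made from dissected midbrain of mice aged 180 days, in 3 groups that differed in Dot1l, the enzyme that methylates histone H3 at lysine 79. Dot1l(+/+) mice were the controls, Dot1l(fl/+) mice had 1 floxed allele and Dot1l(fl/fl) mice had 2. Every group carried Pitx3-Cre on 1 allele together with the Rosa-lox-stop-lox-Yfp reporter on a C57/Bl6 background, so the controls also made the recombinase. Tissue of 3 mice was pooled for each of the 3 libraries of a group, so the spread below is that between pools. Pitx3 drives Cre in midbrain dopamine neurons, and the cells described here are therefore not those in which Dot1l was to be deleted. The labels name midbrain dopamine neurons as the sampled cells, but the tissue was whole: oligodendrocyte markers summed to 1734 to 2000 CPM per kb (CPM, counts scaled to library size, divided by the kilobases of exon), endothelial genes to 131 to 143, and dopamine neuron markers to 79.4 to 132.

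Brain capillaries are tubes of endothelial cells sealed by tight junctions, which together form the blood-brain barrier and carry glucose and other solutes through dedicated transporters. Pericytes sit on the capillary wall inside a shared basement membrane and depend on the platelet-derived growth factor signal from the endothelium. Arteries and arterioles are wrapped in contractile smooth muscle. Fibroblasts of the meninges and of the space around larger vessels secrete fibrillar collagens and small proteoglycans, and also carry transporters for organic anions and solutes. In dissected tissue, fewer cells of a type and less RNA per cell cannot be told apart.

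3 promoters are shown, of genes described below. They are Ranbp3l, with the largest difference among the 35, Acta2 for the smooth muscle genes, and Cldn5, a defining gene of barrier endothelium. The smooth muscle genes were all lowest in the same pool. The Dot1l(fl/fl) pools of Cldn5 lay below the controls, as did those of 5.25% of all genes tested, with an edgeR unadjusted p of 0.16. Each run is the 250 bases before the RefSeq start of transcription in GRCm38.p6, written 5′ to 3′ on the strand of the gene. Of the 35 genes, 25 matched an entry of the RefSeq promoter table. Capitals mark each CG in Ranbp3l (chr15:8967699-8967948, plus strand), each match to the CArG box in Acta2 (chr19:34255374-34255623, minus strand), and each CCAAT in Cldn5 (chr16:18776597-18776846, plus strand), which reads ATTGG there because it lies on the other strand.
Ranbp3l: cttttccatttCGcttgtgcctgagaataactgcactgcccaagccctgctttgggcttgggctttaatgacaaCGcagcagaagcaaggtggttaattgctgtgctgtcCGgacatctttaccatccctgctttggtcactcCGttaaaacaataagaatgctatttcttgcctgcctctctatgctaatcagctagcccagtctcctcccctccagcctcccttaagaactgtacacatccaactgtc
Acta2: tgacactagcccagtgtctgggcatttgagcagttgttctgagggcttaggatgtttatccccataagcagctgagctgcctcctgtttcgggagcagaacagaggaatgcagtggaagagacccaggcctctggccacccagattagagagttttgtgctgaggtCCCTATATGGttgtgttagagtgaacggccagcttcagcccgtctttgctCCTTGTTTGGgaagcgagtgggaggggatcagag
Cldn5: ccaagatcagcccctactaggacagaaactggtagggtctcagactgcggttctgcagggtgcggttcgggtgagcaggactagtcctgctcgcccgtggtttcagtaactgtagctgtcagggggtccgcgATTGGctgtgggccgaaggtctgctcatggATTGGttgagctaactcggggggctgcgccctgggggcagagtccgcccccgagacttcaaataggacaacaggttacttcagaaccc
The CArG box, the DNA element bound by serum response factor in smooth muscle genes, was searched on both strands with at most 1 core base other than A or T. Acta2 held 2 matches, starting 84 and 34 bases before the start, while 8.59% of 32851 promoters of the same length held any, and 7 of the 25 matched genes did. CCAAT was searched on both strands and found 2 times in Cldn5 (33.8% of all promoters held it, and 10 of the 25). The Ranbp3l window held 4 CG dinucleotides against a median of 6 over all promoters, of which 92.1% held at least 1. A match is a description of the letters only.

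The deposited counts summed to between 16422135 and 28403218 per library, and the lowest count of any of the 35 genes in any library was 28 (Higd1b). Dot1l itself was at 80.2 to 85.2 CPM in the controls, 60.6 to 84.2 in the Dot1l(fl/+) pools and 73.9 to 82.9 in those of Dot1l(fl/fl), a level that does not measure the loss of 1 exon. Across all 17671 genes the median log2 fold change lay within 0.0034 of 0 in every comparison. No gene passed an edgeR quasi-likelihood test at a Benjamini-Hochberg adjusted p of 0.05 in any of the 3 comparisons (0% called each), where the lowest adjusted p was 0.412 for Dot1l(fl/+) with the controls, 0.0906 for Dot1l(fl/fl) with the controls and 0.350 for Dot1l(fl/fl) with Dot1l(fl/+). At an unadjusted p of 0.05, 1483, 694 and 1145 genes passed in the same order. The values below are therefore read at the unadjusted threshold against its background, and DESeq2 called 7, 3 and 11 genes at the adjusted threshold. Dot1l(fl/+) replicates 2 and 3 stood apart from the other libraries: replicate 2 held the lowest value of all 9 libraries for 17.5% of genes and the highest for 16.9%, and replicate 3 for 16.8% and 14.9%, against 7.83 to 12.01% and 8.23 to 11.5% in the other 7.

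The endothelial genes were close between the 3 genotypes, most smooth muscle and fibroblast genes lay below the control mean in 2 of the 3 Dot1l(fl/+) pools, and Ranbp3l, Col1a1, Col3a1 and Myh11 did so in all 3. In Dot1l(fl/+) against the controls, 3 of the 35 genes were lower at an unadjusted p of 0.05 (Ranbp3l, Col3a1 and Col1a1) and 0 were higher, while 4.09% of all genes tested were lower and 4.3% higher. The same 3 genes had Dot1l(fl/+) pools wholly below the control pools, which held for 6.47% of all genes, and 0 of the 35 lay wholly above, which held for 6.84%. Ranbp3l was listed with its low value in Dot1l(fl/+) known, so its place in these counts and those below is not set against the shares. Without it, Col3a1 and Col1a1 remain among the lower genes of both counts. In Dot1l(fl/fl) against the controls, 0 of the 35 genes passed in either direction, against 1.72% of all genes lower and 2.21% higher. Pools did not overlap for Cldn5 and Ly6c1, which were lower, and Slco1c1, which was higher (5.25% of all genes lower and 5.03% higher). In Dot1l(fl/fl) against Dot1l(fl/+), Ranbp3l and Col3a1 were higher at the unadjusted threshold and 0 genes were lower, with 3.6% of all genes higher and 2.87% lower. The study paired its pools across genotypes by nest, and no label says that a replicate number marks such a set. With the replicate number as a block, 5 of the 35 were higher and 0 lower (3.94 and 3.19% of all genes). The 5 added Rgs5 (unadjusted p 0.032), Acta2 (0.046) and Myh11 (0.049) to Ranbp3l and Col3a1, and the lowest edgeR adjusted p was 0.442. With a length and GC offset beside the block, 3 members passed (Ranbp3l, Col3a1 and Acta2), with 6.31% of all genes past in either direction. In the pools themselves Ranbp3l lay wholly above and Ly6c1 wholly below (5.98 and 5.14% of all genes). Both Dot1l(fl/fl) with Dot1l(fl/+) and Dot1l(fl/+) with the controls use the same Dot1l(fl/+) pools, so they are not separate evidence of its level.

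**Figure D1:**
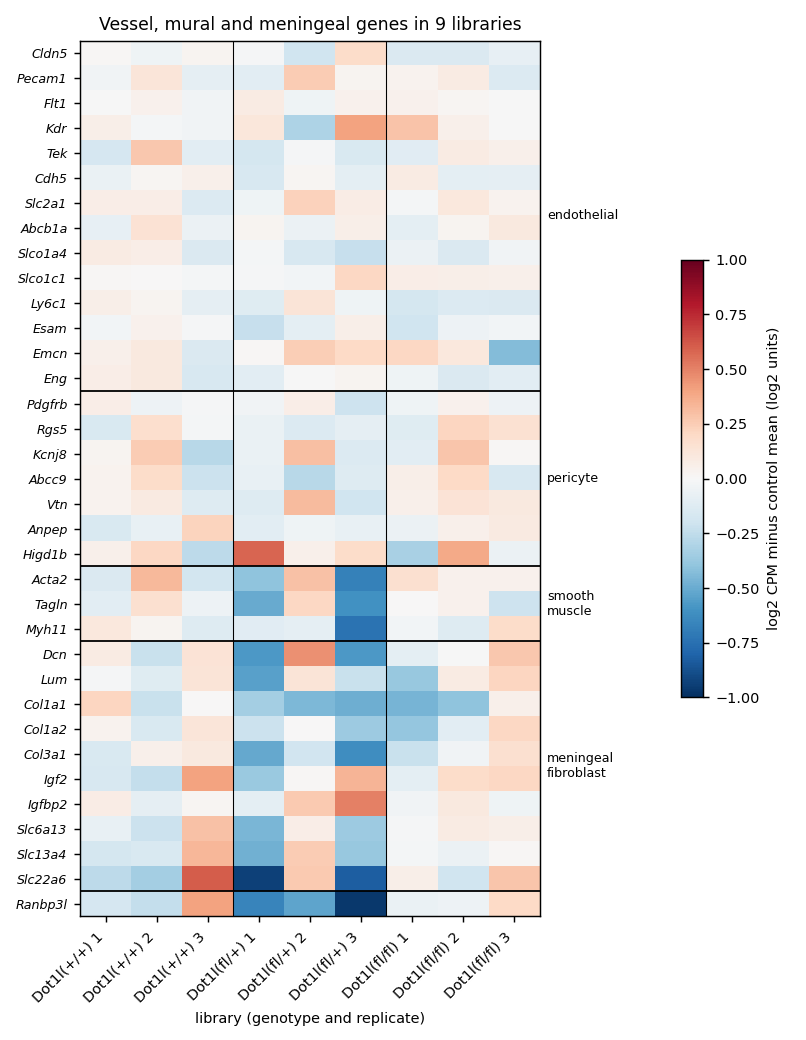
Each row is a gene, each column a library (genotype and replicate), and the colour is the log2 CPM of the library minus the mean of the 3 control libraries, in log2 units, red for higher and blue for lower. Most endothelial rows are pale, with exceptions such as Kdr in Dot1l(fl/+) replicates 2 and 3 and Emcn in Dot1l(fl/fl) replicate 3, most smooth muscle and fibroblast rows are blue in Dot1l(fl/+) replicates 1 and 3 but not in replicate 2, and the rows of Ranbp3l, Col1a1 and Col3a1 are blue in all 3.

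The sum of the 14 endothelial genes was 575, 592 and 541 CPM in the controls, 559, 569 and 587 in the Dot1l(fl/+) pools and 564, 566 and 562 in those of Dot1l(fl/fl). The groups overlapped, with means of 569 ± 26.1, 572 ± 14.3 and 564 ± 1.98 (SD, n = 3 each). The median log2 fold change of the class against the controls was 0.0034 for Dot1l(fl/+) and -0.0040 for Dot1l(fl/fl), beside -0.0034 and 0.0009 over all genes tested. Its members ran from -0.14 (Slco1a4) to 0.16 (Emcn) in Dot1l(fl/+) and from -0.15 (Ly6c1) to 0.12 (Kdr) in Dot1l(fl/fl).

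Among the junction and adhesion genes, Cldn5, the claudin that seals the tight junctions of the barrier, was at 40.7, 39.2 and 41.0 CPM in the controls, 40.0, 35.2 and 45.8 in the Dot1l(fl/+) pools and 36.4, 36.4 and 38.1 in those of Dot1l(fl/fl). All Dot1l(fl/fl) pools lay below all controls, by a log2 fold change of -0.12 (SE 0.084, edgeR unadjusted p 0.16, adjusted p 0.999), while the Dot1l(fl/+) pools spanned both. Over 14 alternative settings the unadjusted p ran from 0.044 (the 2 groups alone) to 0.28. Pecam1, an adhesion molecule of the endothelial surface, was at 24.4 to 31.9 CPM over the 9 libraries. Cdh5, the cadherin of endothelial junctions, was at 17.7 to 20.9 CPM, and Esam, a junctional adhesion molecule, at 15.7 to 19.2. Their log2 fold changes against the controls lay between -0.094 (Esam in Dot1l(fl/fl)) and 0.065 (Pecam1 in Dot1l(fl/+)), with overlapping pools.

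The receptor genes overlapped between the genotypes. Flt1, a receptor for vascular endothelial growth factor, was the steadiest of the 35 genes at 92.4 to 101 CPM, with log2 fold changes of 0.027 (SE 0.050) in Dot1l(fl/+) and 0.021 (SE 0.050) in Dot1l(fl/fl). Kdr, the main signalling receptor for the same factor, was at 25.2, 23.9 and 23.6 CPM in the controls, 26.1, 19.5 and 31.98 in the Dot1l(fl/+) pools and 29.5, 25.1 and 24.1 in those of Dot1l(fl/fl). Its lowest and its highest value were both in Dot1l(fl/+), in replicates 2 and 3. Tek, the receptor for angiopoietins, was at 18.0 to 24.5 CPM, highest in a control pool.

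The barrier transporters were abundant and close between groups. Slc2a1, the glucose carrier of the barrier that other brain cells also express at lower levels, was at 99.6, 99.2 and 86.5 CPM in the controls, 92.3, 112 and 99.9 in the Dot1l(fl/+) pools and 93.8, 102 and 97.3 in those of Dot1l(fl/fl), and the groups overlapped. Slco1a4, an organic anion transporter, had a log2 fold change of -0.14 for Dot1l(fl/+) (SE 0.071, edgeR unadjusted p 0.077, adjusted p 0.631). Slco1c1, the thyroxine transporter of the barrier that astrocytes also express, was at 53.3, 52.9 and 52.2 CPM in the controls and 55.4, 54.9 and 54.7 in Dot1l(fl/fl), while Dot1l(fl/+) pools were at 52.3, 51.7 and 61.0. The Dot1l(fl/fl) pools lay just above all controls, by 0.059 on the log2 scale (SE 0.066, unadjusted p 0.39, edgeR adjusted p 0.999). Abcb1a, the drug efflux pump, was at 39.5 to 46.7 CPM with fold changes within 0.0056 of 0 against the controls on the log2 scale. It is uncertain to the extent that counting split reads with its near-identical copy Abcb1b.

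Ly6c1, a surface protein of brain endothelium with the near-identical copy Ly6c2, was at 25.02, 24.4 and 22.5 CPM in the controls, 22.0, 26.2 and 23.2 in the Dot1l(fl/+) pools and 21.2, 21.8 and 21.7 in those of Dot1l(fl/fl). The Dot1l(fl/fl) pools were below every other library, with a log2 fold change of -0.15 against the controls (SE 0.083, edgeR unadjusted p 0.089, adjusted p 0.999). Emcn, a mucin-like protein of capillary and venous endothelium, ranged from 4.79 to 7.70 CPM, its lowest in Dot1l(fl/fl) replicate 3. Eng, a co-receptor for transforming growth factor β, was at 26.0 to 31.0 CPM, with a log2 fold change of -0.10 for Dot1l(fl/fl) (SE 0.080). Eng overlaps Fpgs on the other strand, which was at 7.32 CPM. Of 26 further endothelial genes from a separate list, 0 passed the unadjusted threshold in any comparison, where 3.93 to 8.39% of all genes did. Their median log2 fold changes were -0.018 for Dot1l(fl/+) and -0.032 for Dot1l(fl/fl) against the controls.

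**Figure D2:**
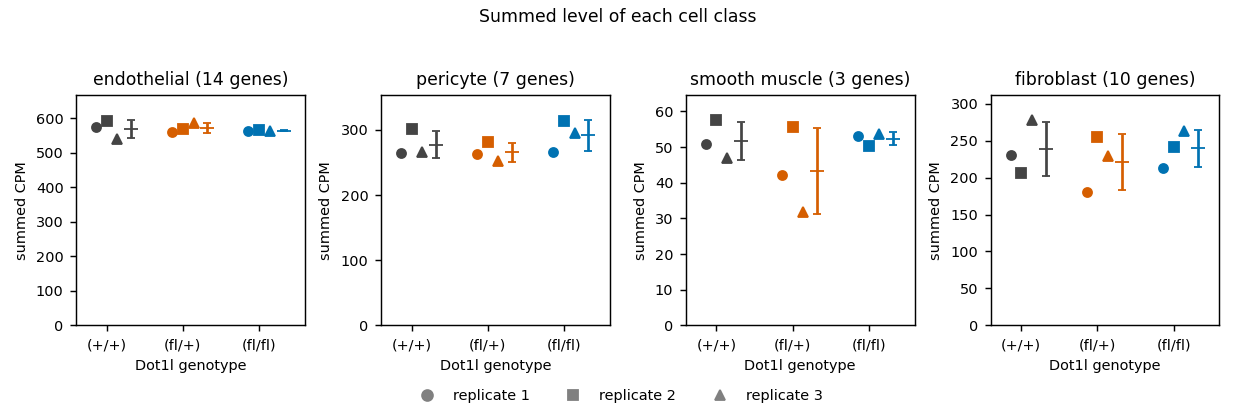
Each panel sums the CPM of the genes of 1 class; points are libraries, with a symbol for each replicate number, and the bar beside them is the mean ± SD of the 3 libraries, with the y axis from 0. Endothelial sums lie between 541 and 592 CPM in all 9 libraries, while Dot1l(fl/+) replicates 1 and 3 hold the 2 lowest smooth muscle sums, 42.2 and 31.8.

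Pericyte genes were also close between genotypes. Their sum was 265, 301 and 266 CPM in the controls, 263, 281 and 253 in the Dot1l(fl/+) pools and 266, 313 and 295 in those of Dot1l(fl/fl), and the groups overlapped. The class had a median log2 fold change of -0.052 for Dot1l(fl/+) and 0.038 for Dot1l(fl/fl) against the controls. Leaving out 1 library moved the first from -0.11 (Dot1l(fl/+) replicate 2) to 0.018 (Dot1l(fl/+) replicate 3) and the second from -0.046 (Dot1l(fl/fl) replicate 2) to 0.14 (control replicate 2). Rgs5, a regulator of G protein signalling and the defining pericyte transcript of the list, was at 133, 166 and 146 CPM in the controls, 141, 135 and 139 in the Dot1l(fl/+) pools and 136, 172 and 164 in those of Dot1l(fl/fl). Dot1l(fl/fl) against Dot1l(fl/+) gave 0.19 on the log2 scale (SE 0.087, unadjusted p 0.054, edgeR adjusted p 0.770), with overlapping pools. Pdgfrb, the receptor that keeps pericytes on the vessel, was at 26.7 to 32.2 CPM, with log2 fold changes of -0.052 for Dot1l(fl/+) (SE 0.077) and -0.016 for Dot1l(fl/fl) (SE 0.078).

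Kcnj8 and Abcc9 encode the pore and the regulatory subunit of the pericyte ATP-sensitive potassium channel. Kcnj8 was at 2.86 to 4.31 CPM and Abcc9 at 13.1 to 18.2, with log2 fold changes of 0.040 and -0.16 in Dot1l(fl/+), and the groups overlapped. Vtn, the secreted adhesion protein vitronectin, was the most abundant of the 35 genes per length in the controls, at 35.9 CPM per kb. It was at 74.6, 77.5 and 66.7 CPM in the controls, 66.7, 90.9 and 63.4 in the Dot1l(fl/+) pools and 75.4, 80.2 and 77.9 in those of Dot1l(fl/fl), highest in Dot1l(fl/+) replicate 2. Anpep, an aminopeptidase of pericytes and some fibroblasts, was the least abundant per length (0.912 CPM per kb in the controls) at 3.36 to 4.40 CPM. Higd1b, a small hypoxia-related protein, was at 1.40 to 2.70 CPM, and its log2 fold change of 0.29 for Dot1l(fl/+) (SE 0.24) rested on 28 to 69 counts per library.

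The 3 contractile genes of smooth muscle were all lowest in the same Dot1l(fl/+) pool. Acta2, smooth muscle actin (chr19:34241090-34255590, minus strand, GRCm38; its promoter is printed above), was at 16.0, 22.2 and 15.6 CPM in the controls, 13.4, 21.7 and 11.03 in the Dot1l(fl/+) pools and 19.8, 18.3 and 18.3 in those of Dot1l(fl/fl). Dot1l(fl/+) replicates 1 and 3 were the lowest 2 of the 9 libraries, and replicate 2 was the second highest. Tagln, an actin-binding protein, was at 9.79, 11.8 and 10.1 CPM in the controls, 7.40, 12.2 and 6.91 in the Dot1l(fl/+) pools and 10.6, 10.8 and 9.10 in those of Dot1l(fl/fl), with the same 2 pools lowest. Tagln overlaps Pcsk7 on the other strand, which was at 23.7 CPM. Myh11, the smooth muscle myosin heavy chain, was at 24.9, 23.6 and 21.3 CPM in the controls, 21.4, 21.8 and 13.9 in the Dot1l(fl/+) pools and 22.8, 21.2 and 26.3 in those of Dot1l(fl/fl). Here Dot1l(fl/+) replicate 3 alone was far below the others.

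The log2 fold changes in Dot1l(fl/+) were -0.22 for Acta2 (SE 0.20, p 0.30), -0.25 for Tagln (SE 0.18, p 0.18) and -0.29 for Myh11 (SE 0.15, p 0.070), all unadjusted edgeR values, with a lowest adjusted p of 0.622. In Dot1l(fl/fl) the 3 genes lay between -0.051 and 0.067. Dot1l(fl/+) replicate 3 held the lowest of all 9 libraries for 3 of 3 smooth muscle genes, while it held the lowest for 16.8% of all genes tested. The same pool held the highest value for 15 of 15 choroid plexus, 5 of 5 ependymal and 7 of 10 oligodendrocyte genes, beside 14.9% of all genes, and the part of these tissues in the smooth muscle values was not tested. The median within-genotype SD of the class was 0.28 on the log2 scale, beside 0.10 for the endothelial genes, 0.17 for pericytes, 0.25 for fibroblasts, and 0.11 for the 12748 genes tested in the CPM range of the 35. Of 14 further mural genes, 13 had a negative log2 fold change in Dot1l(fl/+) against the controls, with a median of -0.20. Beside 4.09% of all genes, 2 of the 14 were lower at the unadjusted threshold. These were Ednra, the endothelin A receptor (log2 fold change -0.36, SE 0.14, edgeR adjusted p 0.541), and Mylk, the myosin light chain kinase (-0.22, SE 0.085, adjusted p 0.541). Mylk was higher in Dot1l(fl/fl) than in Dot1l(fl/+) at the same threshold (0.22, SE 0.086), beside 3.6% of all genes. Between Dot1l(fl/fl) and the controls 0 of the 14 passed, beside 3.93% of all genes, and 11 were negative with a median of -0.12. The 14 genes summed to 134, 137 and 126 CPM in the controls, 115, 118 and 116 in the Dot1l(fl/+) pools and 122, 126 and 123 in those of Dot1l(fl/fl). The Dot1l(fl/+) sums were below the other 6 libraries, replicate 2 included. Pools lay wholly below the controls for 4 of the 14 in Dot1l(fl/+) (6.47% of all genes) and 2 of the 14 in Dot1l(fl/fl) (5.25%).

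The fibroblast genes summed to 230, 207 and 278 CPM in the controls, 181, 255 and 229 in the Dot1l(fl/+) pools and 213, 241 and 264 in those of Dot1l(fl/fl), and the groups overlapped. In Dot1l(fl/+) replicate 3, Igf2 and Igfbp2 made up 92.0 and 38.7 of the 229 CPM. Genes below the control mean numbered 10, 2 and 8 of the 10 in Dot1l(fl/+) replicates 1, 2 and 3. In Dot1l(fl/+), 9 of the 10 genes had a negative log2 fold change against the controls, with a median of -0.19 beside -0.0034 over all genes. Of these, 2 were lower at the unadjusted threshold, beside 4.09% of all genes. The median was -0.025 in Dot1l(fl/fl), beside 0.0009 over all genes. There 6 of the 10 were negative and 0 passed, beside 1.72% of all genes lower and 2.21% higher.

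Col1a1, a chain of type I collagen (chr11:94936224-94953042, plus strand, GRCm38), was at 19.2, 14.1 and 16.5 CPM in the controls, 13.04, 12.1 and 11.7 in the Dot1l(fl/+) pools and 11.96, 12.5 and 17.04 in those of Dot1l(fl/fl). All 3 Dot1l(fl/+) pools lay below all controls, and so did 2 of the 3 Dot1l(fl/fl) pools. The log2 fold change was -0.44 for Dot1l(fl/+) (SE 0.14, edgeR unadjusted p 0.0086, adjusted p 0.541) and -0.28 for Dot1l(fl/fl) (SE 0.14, unadjusted p 0.074, adjusted p 0.999). Without control replicate 1 the first had an unadjusted p of 0.0505. Col1a2, the other chain of type I collagen, was at 28.2, 24.7 and 29.9 CPM in the controls, 23.7, 27.5 and 21.4 in the Dot1l(fl/+) pools and 20.99, 25.5 and 31.8 in those of Dot1l(fl/fl). Its groups overlapped, with a log2 fold change of -0.19 for Dot1l(fl/+) (SE 0.13, unadjusted p 0.18).

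Col3a1, the chain of type III collagen (chr1:45311538-45349706, plus strand, GRCm38), was at 9.36, 10.8 and 11.1 CPM in the controls, 7.25, 9.08 and 6.72 in the Dot1l(fl/+) pools and 8.88, 10.2 and 11.6 in those of Dot1l(fl/fl). The Dot1l(fl/+) pools lay below all controls, while those of Dot1l(fl/fl) covered the control range. The log2 fold change was -0.44 in Dot1l(fl/+) against the controls (SE 0.14, unadjusted p 0.0068, edgeR adjusted p 0.541). Against Dot1l(fl/+), Dot1l(fl/fl) was higher by 0.40 (SE 0.14, unadjusted p 0.012), which rose to an unadjusted p of 0.0529 in the absence of Dot1l(fl/+) replicate 3 and 0.0590 in that of Dot1l(fl/fl) replicate 3.

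The small proteoglycans of the collagen matrix split the Dot1l(fl/+) pools. The mitochondrial share of counts differed between the same pools, at 3.89, 4.58 and 3.53% beside 3.68 to 4.27% in the controls and 4.16 to 4.63% in Dot1l(fl/fl), and its part in these values was not tested. Dcn, decorin, was at 38.8, 31.2 and 40.3 CPM in the controls, 24.5, 50.3 and 24.5 in the Dot1l(fl/+) pools and 34.2, 36.4 and 44.0 in those of Dot1l(fl/fl). The 2 lowest and the highest of the 9 values were thus all from Dot1l(fl/+), and the mean of 33.1 ± 14.9 (SD, n = 3) describes none of them. Lum, lumican, was at 7.99, 7.39 and 8.83 CPM in the controls, 5.48, 8.80 and 6.87 in the Dot1l(fl/+) pools and 6.16, 8.50 and 9.34 in those of Dot1l(fl/fl), with overlapping groups. Their log2 fold changes in Dot1l(fl/+) were -0.15 (SE 0.22) and -0.19 (SE 0.18).

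The meningeal transporters had the same split. Slc22a6, an organic anion transporter, was at 6.34, 6.01 and 11.6 CPM in the controls, 3.96, 9.15 and 4.27 in the Dot1l(fl/+) pools and 7.96, 6.64 and 9.28 in those of Dot1l(fl/fl). Dot1l(fl/+) replicates 1 and 3 were the lowest 2 libraries and replicate 2 was the third highest, which gave a log2 fold change of -0.47 with an SE of 0.30. Slc6a13, a GABA and taurine transporter, was at 15.6, 14.1 and 20.1 CPM in the controls, 11.9, 17.2 and 12.7 in the Dot1l(fl/+) pools and 16.3, 17.4 and 17.2 in those of Dot1l(fl/fl), and the Dot1l(fl/+) pools gave a log2 fold change of -0.25 (SE 0.15, unadjusted p 0.11). Slc13a4, a sulfate transporter, was at 11.1, 11.3 and 15.8 CPM in the controls, 8.97, 15.0 and 9.65 in the Dot1l(fl/+) pools and 12.4, 12.1 and 12.7 in those of Dot1l(fl/fl). In all 3 transporters the highest control was replicate 3, and the groups overlapped. Dot1l(fl/+) replicate 1 held the lowest of all 9 values for 7 of the 10 fibroblast genes, beside 7.83% of all genes tested.

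**Figure D3:**
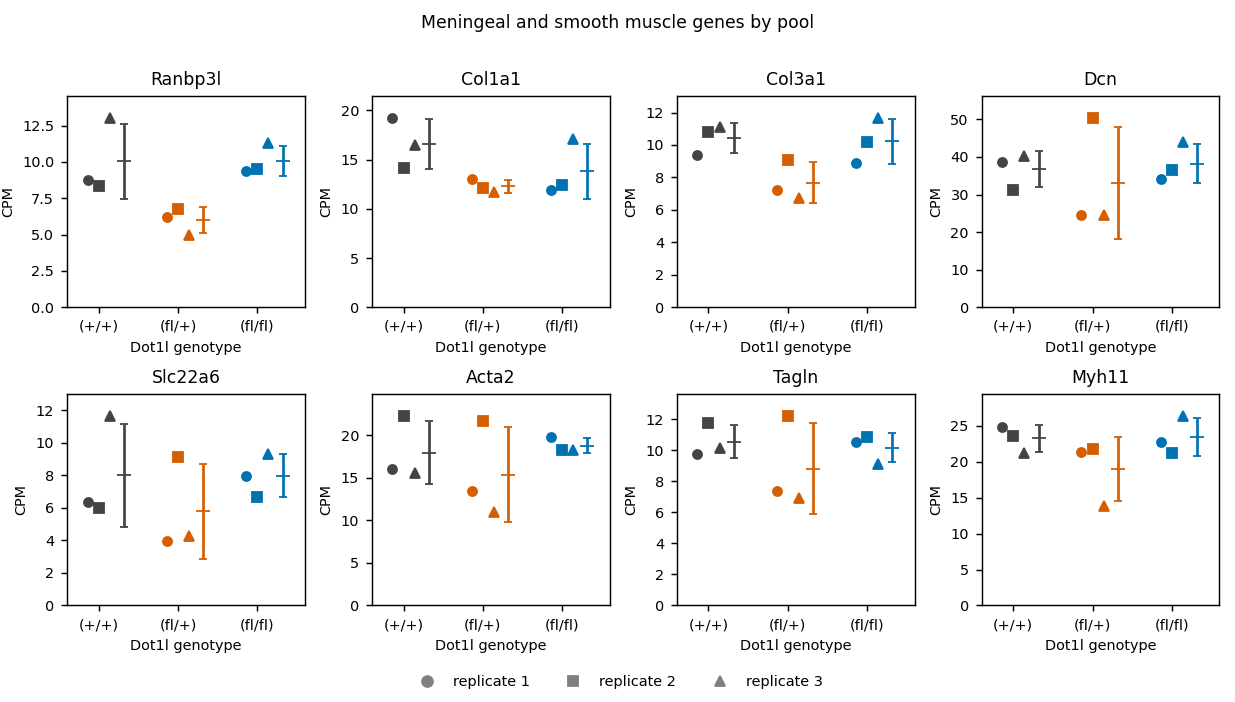
CPM of Ranbp3l, 4 fibroblast genes and 3 smooth muscle genes by genotype; points are libraries, with a symbol for each replicate number, the bar beside them is the mean ± SD of 3 libraries, and each y axis starts at 0. In Dot1l(fl/+), Dcn, Slc22a6, Acta2 and Tagln are high in replicate 2 and low in replicates 1 and 3, while Ranbp3l lies between 5.00 and 6.78 in all 3.

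The growth factor genes did not follow the collagens. Igf2, insulin-like growth factor 2, was at 65.2, 61.6 and 96.1 CPM in the controls, 56.3, 73.4 and 92.0 in the Dot1l(fl/+) pools and 67.9, 82.8 and 84.2 in those of Dot1l(fl/fl), with fold changes of -0.011 (SE 0.17) and 0.071 (SE 0.17) on the log2 scale. Igfbp2, which binds insulin-like growth factors, was at 28.7, 25.6 and 27.5 CPM in the controls, 25.4, 32.7 and 38.7 in the Dot1l(fl/+) pools and 26.5, 29.2 and 26.4 in those of Dot1l(fl/fl). Its highest value was in Dot1l(fl/+) replicate 3, and it was the only 1 of the 10 fibroblast genes with a positive log2 fold change there (0.24, SE 0.12, unadjusted p 0.061, edgeR adjusted p 0.611).

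Both growth factor genes are also expressed by choroid plexus epithelium, and its markers moved between the same pools. Ttr, transthyretin, the defining choroid plexus transcript, was at 116, 39.5 and 106 CPM in the controls, 79.7, 137 and 505 in the Dot1l(fl/+) pools and 19.2, 13.4 and 15.6 in those of Dot1l(fl/fl). The 15 choroid plexus genes summed to 514 to 663 CPM in the controls, 594 to 1412 in the Dot1l(fl/+) pools and 456 to 483 in those of Dot1l(fl/fl). At the unadjusted threshold 8 of 15 were higher in Dot1l(fl/+), 6 of 15 were lower in Dot1l(fl/fl) and 15 of 15 were lower in Dot1l(fl/fl) than in Dot1l(fl/+). Of all genes tested, 4.3, 1.72 and 2.87% passed in the same order and directions. Dot1l(fl/+) replicate 3, with the most Ttr, also had the most Igfbp2 of the 9 libraries, while Dcn and Slc22a6 were low in it. The part of choroid plexus tissue in these values was not tested.

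**Figure D4:**
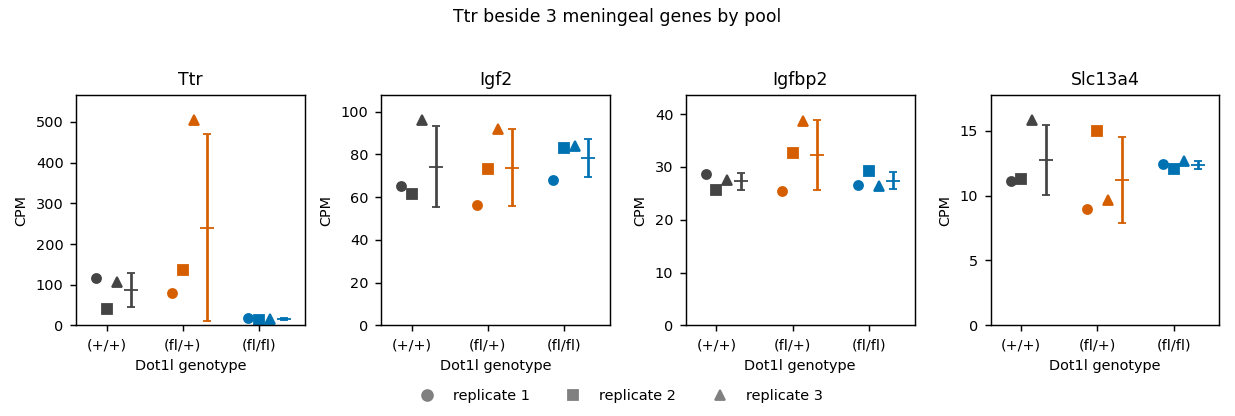
CPM of Ttr beside Igf2, Igfbp2 and Slc13a4 by genotype; points are libraries, with a symbol for each replicate number, the bar is the mean ± SD of 3 libraries, and each y axis starts at 0. Ttr reaches 505 CPM and Igfbp2 38.7 in Dot1l(fl/+) replicate 3, where Slc13a4 is at 9.65.

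Ranbp3l, a Ran-binding protein that takes part in export from the nucleus (ENSMUSG00000048424, chr15:8967949-9067335, plus strand, GRCm38; its promoter is printed above), showed the largest difference of the 35 genes. It was at 8.75, 8.33 and 13 CPM in the controls, 6.19, 6.78 and 5.00 in the Dot1l(fl/+) pools and 9.40, 9.49 and 11.3 in those of Dot1l(fl/fl). Every Dot1l(fl/+) pool lay below every other library, and the Dot1l(fl/fl) pools lay inside the control range. Means were 10.03 ± 2.58, 5.99 ± 0.909 and 10.1 ± 1.06 CPM (SD, n = 3 each). The log2 fold change was -0.75 in Dot1l(fl/+) against the controls (SE 0.17, unadjusted p 0.00075, edgeR adjusted p 0.540). Dot1l(fl/fl) differed from the controls by -0.0079 (SE 0.17) and was above Dot1l(fl/+) by 0.74 (SE 0.17, unadjusted p 0.00086, adjusted p 0.535). Against the controls the difference in Dot1l(fl/+) stayed between -0.86 and -0.51 over 14 alternative settings, with unadjusted p values up to 0.0050 and adjusted p values from 4.6e-05 (no filter on low counts) to 0.867.

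Ranbp3l differed from most fibroblast genes in Dot1l(fl/+) replicate 2, where it was below the control mean by a log2 difference of -0.53 while the 10 fibroblast genes had a median of 0.10 and the smooth muscle genes of 0.21. Col1a1, at -0.45, and Col3a1, at -0.19, were also below the control mean there. In replicates 1 and 3, the fibroblast medians were -0.47 and -0.37, those of smooth muscle -0.40 and -0.68, and Ranbp3l lay at -0.66 and -0.96. Over the 9 libraries with genotype means removed, the members whose log2 CPM was most like that of Ranbp3l were Anpep (Pearson r 0.82), Slc22a6 (0.81), Slc6a13 (0.77), Slc13a4 (0.74) and Col1a2 (0.71). They ranked 208, 246, 367, 527 and 668 among the genes tested. The members furthest in the other direction were Abcc9 (-0.82) and Eng (-0.79). In the same measure, the 5 genes tested whose log2 CPM was most like Ranbp3l were 9930021J03Rik (Pearson r 0.974), Slc25a40 (0.972), Prrx1 (0.965), Zyg11b (0.964) and Ahnak (0.958), which is a description of 9 points picked from 17671 genes.

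Of 25 further fibroblast genes, 22 had a negative log2 fold change in Dot1l(fl/+) against the controls, with a median of -0.21. Gjb2, a connexin of meningeal cells (-0.35, SE 0.14, edgeR adjusted p 0.557), and Fbln1, a matrix glycoprotein (-0.32, SE 0.14, adjusted p 0.574), were lower at the unadjusted threshold and 0 were higher. Of all genes, 4.09% were lower and 4.3% higher. Between Dot1l(fl/fl) and the controls the median was 0.011, and Bgn, biglycan, was higher (0.23, SE 0.090, edgeR adjusted p 0.999) at 19.6 to 21.2 CPM against 16.4 to 18.6. At the unadjusted threshold 2.21% of all genes were higher there. In Dot1l(fl/fl) against Dot1l(fl/+), 4 of the 25 were higher and 0 lower, beside 3.6 and 2.87% of all genes. They were led by Bgn (0.40, SE 0.090), Serpinf1 (0.24, SE 0.10) and Gjb2 (0.33, SE 0.15).

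Without Dot1l(fl/+) replicate 2, a setting among those that leave out each library, the contractile and fibroblast genes read differently. Then 12 of the 35 genes were lower and 1 (Kdr) was higher in Dot1l(fl/+) than in the controls at the unadjusted threshold, where 5.45% of all genes were lower and 4.71% higher. The 12 were 3 of 3 smooth muscle genes, 7 of 10 fibroblast genes, Vtn and Ranbp3l, and none passed an adjusted p of 0.05 with edgeR (lowest 0.149). The smooth muscle median became -0.55 and the fibroblast median -0.43, with log2 fold changes of -0.58 for Dcn (SE 0.12) and -0.97 for Slc22a6 (SE 0.25). Against Dot1l(fl/+) without that pool, 10 of the 35 were higher in Dot1l(fl/fl) and 1 (Cldn5, unadjusted p 0.0089) was lower, with 5.53% of all genes higher and 4.26% lower. The further mural median was -0.25 without that pool, and -0.24 to -0.18 without any other library of the 2 groups. The 5 of the 14 lower without that pool were Cnn1, Tbx18, Atp13a5, Myl9 and Lmod1, while Ednra and Mylk no longer passed (unadjusted p 0.061 and 0.090). Of the 25 further fibroblast genes, 9 were then lower than in the controls, among them Ogn (-0.67, SE 0.13) and Aldh1a2 (-0.56, SE 0.12), named after their values were seen, and 10 were higher in Dot1l(fl/fl) than in Dot1l(fl/+). Without control replicate 2, 8 of the 25 were lower, where 6.72% of all genes passed in either direction. Without any other library of the 2 groups 1 or 2 of the 25 were lower, where 5.45 to 12.5% of all genes passed. Other libraries moved the medians the opposite way. The smooth muscle median shrank to -0.10 without Dot1l(fl/+) replicate 3 (Acta2 -0.029, Tagln -0.11, Myh11 -0.10), to -0.14 without Dot1l(fl/+) replicate 1 and to -0.17 without control replicate 2. The fibroblast median shrank to -0.084 without control replicate 3 and to -0.10 without Dot1l(fl/+) replicate 1. Leaving out any other library gave 2 to 6 of the 35 genes past the threshold in Dot1l(fl/+) against the controls, beside 5.45 to 12.5% of all genes, the 6 and the 12.5% both without Dot1l(fl/+) replicate 1.

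The matrix and signals shared by these cells were mostly level. Of 13 basement membrane genes, Lamb2, a laminin chain of the vessel wall, was lower in Dot1l(fl/+) (log2 fold change -0.17, SE 0.065) and Lama5, another laminin chain, in Dot1l(fl/fl) (-0.30, SE 0.12). Of 21 genes for vessel growth signals, Acvrl1, an endothelial receptor for bone morphogenetic proteins, was lower in Dot1l(fl/fl) than in the controls (-0.31, SE 0.10) and than in Dot1l(fl/+) (-0.24, SE 0.10). Vegfc, a ligand of lymphatic and vessel growth, was higher in Dot1l(fl/fl) in both comparisons (0.36, SE 0.16, and 0.39, SE 0.15), and Nrp1, a co-receptor, was higher than in Dot1l(fl/+) (0.13, SE 0.051). All of these are at the unadjusted threshold, and their lowest edgeR adjusted p was 0.541. Against the controls, 4.09% of all genes were lower at it in Dot1l(fl/+), and 1.72% lower and 2.21% higher in Dot1l(fl/fl). Between the floxed genotypes, 2.87% of all genes were lower and 3.6% higher in Dot1l(fl/fl). Of 12 genes of the Wnt pathway that maintains the barrier, 0 passed in any comparison.

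**Figure D5:**
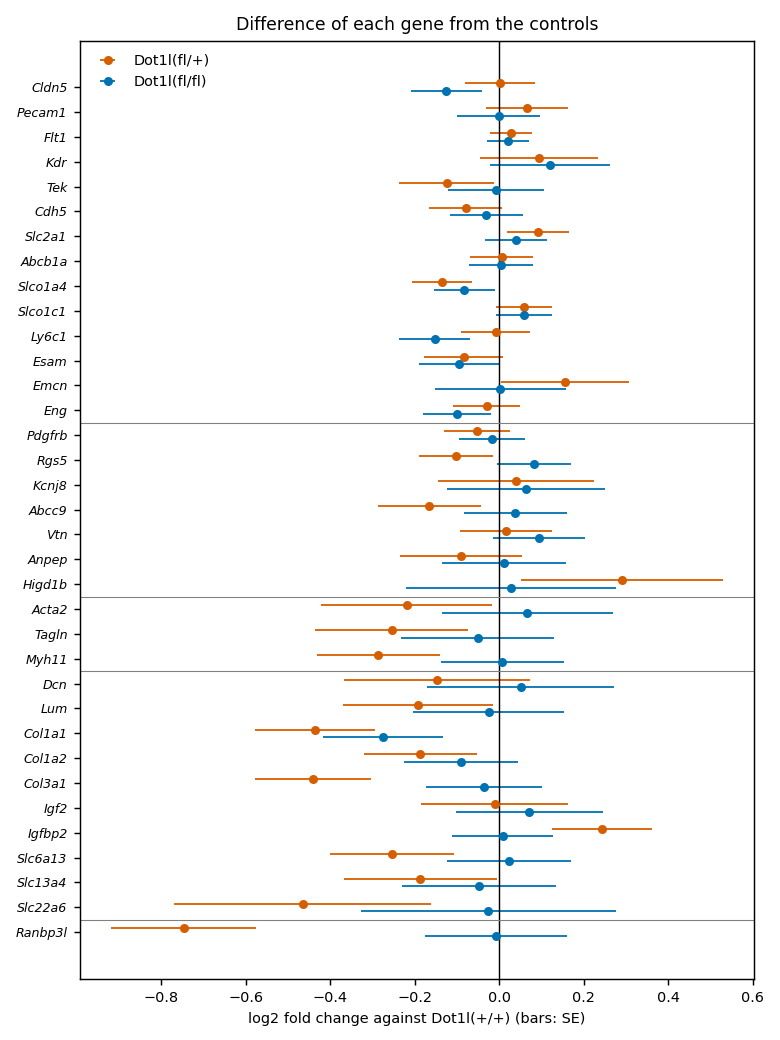
Log2 fold change of each gene in Dot1l(fl/+) (orange) and Dot1l(fl/fl) (blue) against the 3 control libraries, with bars for the SE of the edgeR fit and lines between the cell classes. Endothelial genes lie within 0.16 of 0 in both genotypes, and Ranbp3l at -0.75 is farthest from 0 in Dot1l(fl/+).

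Other cells of the tissue were checked beside these results. Blood cell genes, with Hba-a1 at 32.2 to 69.0 CPM, summed to 99.4 to 280 CPM in the controls, 108 to 172 in the Dot1l(fl/+) pools and 151 to 217 in those of Dot1l(fl/fl). At the unadjusted threshold 1 of 5 was lower in Dot1l(fl/+), beside 4.09% of all genes. The 7 perivascular macrophage genes, led by Mrc1 at 6.32 to 8.79 CPM, summed to 17.0 to 21.7 CPM in the controls, 15.8 to 18.0 in the Dot1l(fl/+) pools and 15.7 to 21.3 in those of Dot1l(fl/fl), and 0 passed. The 9 dopamine neuron genes summed to 414 to 469, 310 to 412 and 288 to 305 CPM in the same order, with 3 of 9 lower than in the controls when 1 allele was floxed and 8 of 9 when 2 were, while the endothelial sum moved by less than its spread. Astrocyte, microglia, oligodendrocyte and ependymal lists had 2 of 10, 1 of 8, 2 of 10 and 0 of 5 genes past the threshold between Dot1l(fl/+) and the controls, and 0, 2, 0 and 0 between Dot1l(fl/fl) and the controls (8.39 and 3.93% of all genes). Between the floxed genotypes, where 6.48% of all genes passed, the lists had 0, 0, 4 (3 oligodendrocyte genes lower in Dot1l(fl/fl) and 1 higher) and 0 genes past the threshold, with 6 of 9 dopamine neuron genes lower and 1 of 5 blood cell genes higher. The part of any of these cells in the vessel and meningeal results was not tested.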

How the data were processed

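RNA of dissected midbrain was sequenced in 9 libraries, 3 per genotype. The authors made directional libraries, demultiplexed and trimmed the reads (bcl2fastq 2.17 and Trimmomatic 0.30 in the submitters' processing notes), mapped them to build GRCm38.p4, and deposited for each Ensembl gene its raw counts. Aligner, counting tool and strand setting are not given in the sources used here. The deposited comparisons, made by the authors with DESeq2 1.10.1, hold mean counts, fold changes and p-values and were not used. The series description speaks of E15.75, the library labels of 180 days, and the labels were followed. Of the 47729 identifiers, 47224 had a gene in GENCODE M21.

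Counts were tested with edgeR 4.0.16 (R 4.3.3): filterByExpr, TMM, quasi-likelihood fit of all 9 libraries with genotype as factor, and Benjamini-Hochberg adjustment over 17671 genes. Thresholds were an adjusted and an unadjusted p of 0.05. CPM are TMM-scaled, and log2 CPM used a prior count of 2. Replicates are pools of 3 mice, so p-values measure the spread between pools. The members and all gene lists were chosen with earlier results of these data known, and counts over them are descriptions without a test. Named were the 35 members, Dot1l, up to 3 genes per further list with the smallest p under 0.05, the defining gene of other cell lists and 5 genes most like Ranbp3l. Alternatives were DESeq2's size factors, no filter, 10 counts in every library, the 2 groups alone, a replicate block, a length and GC offset (splines with 4 degrees of freedom) with and without the block, each library left out, and DESeq2 1.42.0. The steps were tested on simulated data. Figures used Python 3.11.15 and matplotlib 3.10.9.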

Additional observations from a re-analysis of the deposited data

How the results depend on the processing

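Without a filter on low counts, genes past the adjusted threshold numbered 251 in Dot1l(fl/+) against the controls, 118 in Dot1l(fl/fl) against the controls and 164 between the floxed genotypes, those past the unadjusted threshold 1210 and 1795 in the latter pair, and members past it 7, 1 and 9 (7.61, 4.27 and 6.34% of all 28316 genes), of which 2 (Ranbp3l and Col1a1) and 1 (Ranbp3l) passed the adjusted threshold in Dot1l(fl/+) against the controls and in Dot1l(fl/fl) against Dot1l(fl/+). The cause was not tested. With the 2 groups alone, 1 and 4 genes passed the adjusted threshold in the comparisons of Dot1l(fl/+) and Dot1l(fl/fl) with the controls, and 1 member the unadjusted threshold in the latter (5.57% of all genes). DESeq2 called 7, 3 and 11 genes at the adjusted threshold and 5 members in Dot1l(fl/+) and 4 between the floxed genotypes at the unadjusted threshold, beside 4.42 and 3.31% of 28310 genes. With the length and GC offset, 1 member passed the unadjusted threshold in Dot1l(fl/fl) against the controls (3.99% of all genes).

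The study pooled mice in sets paired by nest, but no label ties the replicate numbers to these sets. Same-numbered libraries had correlations of 0.022 to 0.317 of their deviations from the group means, above 0 in 9 of 9 pairs and over 0.1 in 6. Different-numbered libraries had -0.267 to 0.108, below 0 in 13 of 18 pairs, and 6 of 9 libraries were closest to their own number in both other genotypes. This is a hint from the data that the numbers follow the sets. The rule used here asked for over 0.1 in every pair, so the block stayed an alternative. With the replicate block, 3 genes passed the adjusted threshold in each Dot1l(fl/fl) comparison, and 5 members passed the unadjusted threshold against Dot1l(fl/+) (7.12% of all genes). With the offset and the replicate block together, 3 and 4 genes passed the adjusted threshold in these comparisons and 1 member the unadjusted threshold against the controls (4.28% of all genes) and 3 members against Dot1l(fl/+) (6.31%).

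Leaving out 1 library at a time gave 0 to 5 genes past the adjusted threshold in Dot1l(fl/+) against the controls, 0 in Dot1l(fl/fl) against the controls and 0 to 12 between the floxed genotypes, and 976 to 2235, 382 to 942 and 876 to 1752 genes past the unadjusted threshold. Members past it numbered 2 to 13, 0 to 1 and 1 to 11. The fibroblast median ran from -0.43 to -0.084 in Dot1l(fl/+) against the controls and from 0.052 to 0.39 between the floxed genotypes, the smooth muscle median from -0.55 to -0.10 in Dot1l(fl/+), the pericyte median from -0.11 to 0.018 in Dot1l(fl/+), while that of Dot1l(fl/fl) ran from -0.046 to 0.14, and the endothelial median from -0.054 to 0.052 in Dot1l(fl/fl). Vtn, at 0.016 in Dot1l(fl/+) against the controls, ran from -0.16 without Dot1l(fl/+) replicate 2 (unadjusted p 0.028) to 0.11 without Dot1l(fl/+) replicate 3. In the main fit 0 of the 14 endothelial genes passed the unadjusted threshold in any comparison. Some passed it in an alternative, among them Slco1a4, Cldn5, Ly6c1 and Eng. Whether 3 pools a group can resolve differences of this size was not tested. The medians of the 3 smooth muscle and 10 fibroblast genes depend on which library is left out, Dot1l(fl/+) replicates 2 and 3 and control replicate 3 moving them most.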
